A study of Mus musculus with 8 samples.

Results

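RNA of 40 mouse genes of DNA repair and the DNA damage checkpoint was compared between livers of control mice and of mice given MOCA (4,4'-methylenebis(2-chlorobenzenamine)), an aromatic amine used to cure polyurethane. The genes cover base excision repair, mismatch repair, strand break repair, the Fanconi pathway and the checkpoint kinases, together with Prkdc, the gene that carries the scid mutation in NOG mice. Ddias, the DNA damage-induced apoptosis suppressor, is also a member. The members were chosen by gene symbol, with earlier results of these data known. All 40 were among the 15210 genes listed, and 35 of them were among the 12008 genes that passed the filter on low values and were tested. The other 5 (Mutyh, Chek1, Chek2, Fancd2 and Fanca) were under that filter, and none of them was called when all listed genes were fitted without it.

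The livers came from 8 female F1-TKm30 mice aged 17 or 21 weeks, an age that the labels do not assign to single mice. The controls (n = 4) received 0% MOCA and the treated mice (n = 4) received 0.05% MOCA, in both cases for 4 weeks, by a route that the labels do not name. Mice of both groups express HSVtk mutant clone 30 cDNA, a herpes simplex virus thymidine kinase, in the liver from the enhancer and promoter of the mouse transthyretin gene. Both groups are described as NOG, an immunodeficient strain with the scid allele of Prkdc, whose product joins DNA ends. NOG mice also carry a mutated Il2rg, the gene of the common cytokine receptor chain. The genotype of the 8 mice at these loci is not given, and the treatment label names another strain (C57BL) than the strain label does. Each mouse gave 1 library, so that p-values measure the spread between mice. The libraries held 15024945 to 17101844 reads, and each MOCA library (up to 15970453) was shallower than each control library (16077424 and above). In bulk liver RNA, fewer cells of a type and less RNA per cell cannot be told apart.

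Aromatic amines are oxidised in the liver at their nitrogen, and the products can bind DNA bases. In base excision repair a DNA glycosylase removes a damaged base, Apex1 cuts the strand, Polb fills the gap, and Lig3 with its scaffold Xrcc1 seals it. Mismatch repair removes bases misplaced during copying. Breaks of both strands are sensed by the Mre11a, Rad50 and Nbn complex and by the kinase Atm, and are either joined end to end by Ku (Xrcc5 and Xrcc6), Prkdc, Xrcc4 and Lig4 or copied from the sister strand with Brca1 and Brca2. The kinase Atr with Chek1 answers stalled replication forks, and the Fanconi proteins repair crosslinked strands.

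Ddias, the DNA damage-induced apoptosis suppressor, was the single member that passed the test, and it rose 3.48-fold in the ratio of means. No member fell by that test. Values are the deposited ones, in TMM-scaled CPM (reads after correction for library size and composition). Fold changes compare MOCA with control after log2(value + 1), where the added 1 makes those of low genes smaller than their ratios. On that scale the 95% intervals of 31 of the 35 tested members lay wholly within 1.5-fold in either direction and of 34 within 2-fold, which bounds the fold of value + 1 and, for low genes, not that of the RNA. A call is an adjusted p under 0.05 in limma, adjusted over all 12008 genes. In total 80 genes, or 0.666%, were called, of which 48 (0.4%) were higher and 32 (0.266%) lower with MOCA. The 1 of 35 tested members called is 2.86%. It is Ddias, and the repair and checkpoint members held no call. The members were chosen with earlier results known, so this share is not independent of the data.

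The promoter windows of Ddias, the called member, and Xrcc5, the member with the next smallest p, are shown because their RNA differed most clearly between the groups. Each runs from 250 bases before to 50 bases after a transcription start in RefSeq (GRCm38.p6), 5′ to 3′ on the gene's own strand. The Ddias window is chr7:92874198-92874497 on the minus strand, and the Xrcc5 window is chr1:72307171-72307470 on the plus strand. The Ddias window lies wholly inside the RefSeq record of Ddias, which runs to 92874917. The start used is therefore not the outer 5′ end of that record. Capitals mark CCAAT, the core bound by NF-Y, in either orientation, and CACGTG, the E-box.
Ddias: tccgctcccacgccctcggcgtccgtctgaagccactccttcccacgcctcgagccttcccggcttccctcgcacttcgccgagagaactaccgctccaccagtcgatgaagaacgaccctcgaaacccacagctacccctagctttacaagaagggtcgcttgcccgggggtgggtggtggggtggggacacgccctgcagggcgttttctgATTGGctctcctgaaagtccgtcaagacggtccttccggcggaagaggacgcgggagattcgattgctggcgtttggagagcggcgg
Xrcc5: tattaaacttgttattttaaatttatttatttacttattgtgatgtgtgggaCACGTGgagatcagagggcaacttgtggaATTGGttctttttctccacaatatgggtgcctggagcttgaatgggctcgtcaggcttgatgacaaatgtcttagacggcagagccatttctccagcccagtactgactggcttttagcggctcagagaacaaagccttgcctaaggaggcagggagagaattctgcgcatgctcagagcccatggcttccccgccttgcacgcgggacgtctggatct
The Ddias window was 63.7% GC and held CCAAT as ATTGG at base 214. The Xrcc5 window was 48% GC and held CACGTG at base 53 and ATTGG at base 82. Neither window held the p53 response element, but only 0.0592% of all windows did, so its absence is not informative.

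Ddias lies on chromosome 7 from 92857525 to 92874917 on the minus strand (RefSeq, GRCm38, the assembly of mm10). Its values were 1.34, 1.16, 1.23 and 0.780 in control mice 1 to 4 and 2.93, 3.67, 2.98 and 6.11 in MOCA mice 1 to 4. All 4 MOCA livers were above all 4 controls, and MOCA mouse 4 was the highest. The means were 1.13 ± 0.243 and 3.92 ± 1.497 (SD, n = 4), with 74 reads in all control libraries and 249 in all MOCA libraries. The log2 fold change was 1.17 (SE 0.19, 95% interval 0.76 to 1.58, limma adjusted p = 0.0202). Among all 12008 tested genes, called or not, this was the 16th largest increase. On whole reads recovered from the values, edgeR's quasi-likelihood test gave a log2 fold change of 1.79 with an adjusted p of 0.0210.

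The Ddias call depended on which mice entered the fit. It was lost when control mouse 2, 3 or 4 or MOCA mouse 2 was left out, with adjusted p-values of 0.0562, 0.0621, 0.0668 and 0.0509, while the log2 fold change stayed between 0.98 and 1.27 whichever mouse was left out. Without MOCA mouse 4, the highest, the log2 fold change was 0.98 and the adjusted p 0.0222.

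MOCA mouse 4 also had the highest RNA of cell division. The summed level of 14 proliferation markers was 17.3 to 27.0 in controls and 24.7, 18.8, 17.8 and 45.3 in MOCA mice 1 to 4 (Tyms, which makes up most of the sum of all 15, was set aside after its values were seen). Mki67, the antigen of dividing cells, was at 5.87, 3.35, 2.90 and 2.82 in controls and at 5.28, 3.93, 2.98 and 12.4 with MOCA. Of the 8 proliferation markers tested none was called by limma (0 also at an unadjusted p under 0.05), and 0 by either edgeR or DESeq2. The part of cell division in the Ddias difference was not tested, beyond the value without MOCA mouse 4.

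**Figure D1:**
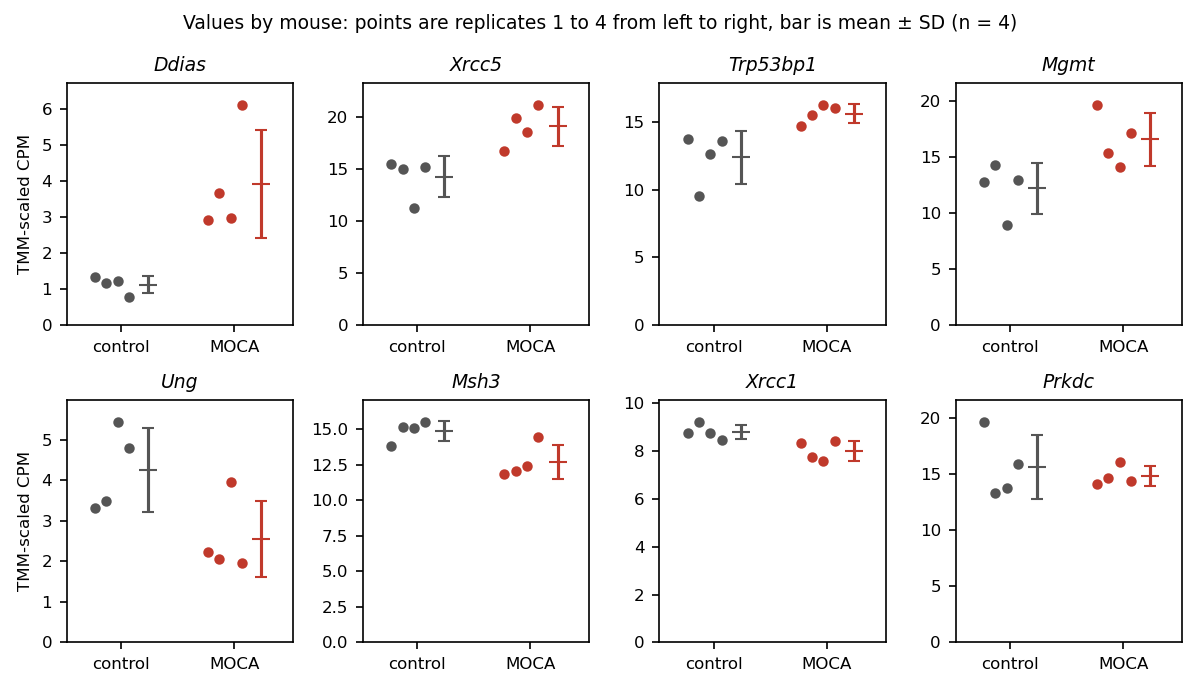
Deposited values (TMM-scaled CPM, linear axes from 0) of 8 members in each mouse, with points for replicates 1 to 4 and bars for the mean ± SD of 4 mice. The MOCA points of Ddias, Xrcc5 and Trp53bp1 lie above every control, those of Xrcc1 lie below every control, and those of Mgmt, Ung, Msh3 and Prkdc overlap the controls.

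Of the 7 glycosylases tested, none was called, 4 log2 fold changes were positive and 3 negative, and their median was 0.03. Ung, which removes uracil from DNA, is on chromosome 5 from 114130366 to 114139321. It was at 3.31, 3.48, 5.43 and 4.80 in controls and at 2.23, 2.06, 3.95 and 1.95 with MOCA. MOCA mouse 3 overlapped the controls and the other MOCA livers were below them all. The means were 4.26 ± 1.03 and 2.55 ± 0.942, and the log2 fold change was -0.58 (SE 0.19, 95% interval -0.99 to -0.17), the most negative of the members. Its unadjusted p was 0.00995 and its adjusted p 0.162, and with a pseudocount of 0.25 its log2 fold change was -0.71.

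Tdg removes thymine and uracil opposite guanine and also acts in DNA demethylation. It was at 13.7, 17.5, 19.9 and 16.4 in controls and at 12.7, 16.1, 14.6 and 13.3 with MOCA, and the groups overlapped. Its log2 fold change was -0.23 (SE 0.12, adjusted p = 0.333). The glycosylases of oxidised bases gave log2 fold changes of 0.11 for Ogg1 (2.26 to 2.51), 0.16 for Nthl1 (2.35 to 2.70) and -0.05 for Neil1 (2.73 to 2.63). Mpg, which removes alkylated bases, gave 0.09 (4.68 to 5.09), and Smug1, another uracil glycosylase, gave 0.03 (9.95 to 10.1). The adjusted p of these 5 genes was 0.655 or above. Mutyh, which removes adenine opposite oxidised guanine, had 8 reads over the controls and 9 over the MOCA libraries, with no read in MOCA mouse 4.

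The 8 genes that finish base excision and repair single-strand breaks included no call, with 6 positive and 2 negative log2 fold changes and a median of 0.11. Xrcc1 differed little in size but without overlap: 8.77, 9.21, 8.76 and 8.46 in controls and 8.34, 7.74, 7.58 and 8.43 with MOCA. The lowest control and the highest MOCA liver were nearly level, and the groups overlapped once the columns were rescaled to equal sums. Its means were 8.80 ± 0.308 and 8.02 ± 0.425, with a log2 fold change of -0.12 (SE 0.09, 95% interval -0.31 to 0.07, adjusted p = 0.496). Lig3, the ligase that Xrcc1 holds, was at 32.8, 26.2, 29.4 and 32.7 in controls and 33.7, 29.8, 39.3 and 33.1 with MOCA. Its log2 fold change was 0.16 (SE 0.10, adjusted p = 0.439), in the other direction from that of its partner, and neither passed the test.

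Parp1, the main sensor of nicked DNA, was at 37.0, 34.5, 33.1 and 38.2 in controls and 37.4, 38.3, 36.9 and 41.5 with MOCA. The groups overlapped, and the log2 fold change was 0.11 (SE 0.07, 95% interval -0.06 to 0.27, adjusted p = 0.488). Its relative Parp2 gave 0.18 (3.71 to 4.35, adjusted p = 0.512). The gap-filling polymerase Polb gave 0.15 (7.57 to 8.44), the flap nuclease Fen1 0.12 (3.07 to 3.44) and the endonuclease Apex1 0.03 (8.77 to 9.04). Aptx, which clears failed ligations, gave -0.09 (6.06 to 5.66).

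Mismatch repair and direct reversal held 2 of the 6 members with an unadjusted p under 0.05, 1 in each direction. Mgmt, which strips alkyl groups from guanine, is on chromosome 7 from 136894463 to 137128193. It was at 12.7, 14.2, 8.95 and 12.9 in controls and at 19.6, 15.3, 14.1 and 17.1 with MOCA. MOCA mouse 3 lay just under the highest control, and the other MOCA livers lay above all controls. The means were 12.2 ± 2.27 and 16.5 ± 2.38, and the log2 fold change was 0.42 (SE 0.14, unadjusted p = 0.0119, adjusted p = 0.170).

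Msh3 pairs with another MutS protein to bind loops of unpaired bases, and is on chromosome 13 from 92211878 to 92355004. It was at 13.8, 15.1, 15.1 and 15.5 in controls and at 11.8, 12.1, 12.4 and 14.4 with MOCA, where mouse 4 overlapped the controls. The means were 14.9 ± 0.722 and 12.7 ± 1.18, with a log2 fold change of -0.22 (SE 0.09, unadjusted p = 0.0303, adjusted p = 0.237). Msh6, which serves single mismatches in place of Msh3, was at 15.6 in both groups on average, with a log2 fold change of 0.00023, whose sign changes with the scaling. Pms2, the endonuclease subunit, averaged 1.56 and 1.598.

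Of the checkpoint genes 4 of 6 were tested, none was called, and 3 log2 fold changes were positive and 1 negative, with a median of 0.08. Trp53bp1, which marks breaks for end joining, is on chromosome 2 from 121194835 to 121296354. It was at 13.8, 9.53, 12.7 and 13.6 in controls and at 14.7, 15.5, 16.3 and 16.0 with MOCA. Every MOCA liver was above every control. The means were 12.4 ± 1.97 and 15.6 ± 0.687, and the log2 fold change was 0.32 (SE 0.11, unadjusted p = 0.0142, adjusted p = 0.180). Its record shares 5490 bases with Tubgcp4 on the other strand, which gave a log2 fold change of 0.03 (adjusted p = 0.911).

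Mdc1, a mediator that brings repair proteins to breaks, was at 17.3, 13.8, 14.9 and 13.02 in controls and at 14.6, 16.4, 16.2 and 19.7 with MOCA (log2 fold change 0.17, SE 0.11, adjusted p = 0.469). Atm (chromosome 9, 53437122 to 53536828) was at 37.5, 31.1, 36.5 and 32.7 in controls and at 26.9, 31.8, 29.1 and 36.1 with MOCA. Its groups overlapped, with a log2 fold change of -0.15 (SE 0.10, 95% interval -0.37 to 0.07, adjusted p = 0.463). Atr (chromosome 9, 95857597 to 95953217) was at 20.2, 16.6, 15.2 and 16.1 in controls and at 16.8, 18.1, 15.7 and 17.3 with MOCA. Both Atr means were 17.0, and the 95% interval of the log2 fold change ran from -0.21 to 0.21 (adjusted p = 0.995).

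The effector kinases downstream of Atr and Atm were near the floor of the data. Chek1 was at 0.349, 0.322, 0.309 and 0.30 in controls and at 0.70, 0.516, 0.389 and 0.244 with MOCA, from 21 and 29 reads. Chek2 was at 0.639, 0.837, 0.679 and 0.780 in controls and at 0.70, 1.16, 0.907 and 1.77 with MOCA, from 48 and 72 reads. The groups of both kinases overlapped.

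The 3 genes of the break sensing complex were close together. Rad50 averaged 12.5 and 12.99, Mre11a 4.76 and 4.94, and Nbn 19.99 and 19.97. Their log2 fold changes were 0.04, 0.04 and -0.0038, and the adjusted p was 0.872 or above for each.

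End joining held the member with the next smallest p after Ddias. Xrcc5 encodes the large subunit of Ku, the ring that grips broken ends, and is on chromosome 1 from 72307417 to 72394953. It was at 15.5, 15.01, 11.3 and 15.2 in controls and at 16.7, 19.9, 18.5 and 21.1 with MOCA. The groups did not overlap, and control mouse 3 was well under the other controls. The means were 14.2 ± 1.97 and 19.1 ± 1.89, and the log2 fold change was 0.40 (SE 0.11, 95% interval 0.16 to 0.65, adjusted p = 0.118). DESeq2 on the recovered reads put Xrcc5 past the threshold, with an adjusted p of 0.0495. That test called 425 genes in all, against 80 by limma. Xrcc6, the other subunit of the ring, averaged 10.2 and 11.2 with a log2 fold change of 0.12 (limma adjusted p = 0.538).

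Prkdc, the kinase that Ku recruits, is on chromosome 16 from 15637444 to 15842239. Its RNA was at 19.6, 13.3, 13.8 and 15.8 in controls and at 14.1, 14.6, 16.1 and 14.4 with MOCA. The groups overlapped around means of 15.6 ± 2.85 and 14.8 ± 0.890, with a log2 fold change of -0.06 (SE 0.12, 95% interval -0.32 to 0.19, adjusted p = 0.828). A value per gene does not show which allele the RNA came from. Xrcc4 averaged 3.16 and 3.23, and its partner Lig4, which seals the ends, averaged 5.79 ± 0.945 and 6.24 ± 2.04. Among the T and NK cell markers, which NOG mice should largely lack, Cd3e, Cd3d and Nkg7 were not listed. Cd8a was between 0 and 0.19 and Il2rg itself between 0.12 and 0.39 in all 8 libraries. Such low values in bulk liver do not show the genotype at Il2rg or Prkdc.

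Of the recombination and Fanconi genes 3 of 5 were tested and none was called. Brca2, which loads the recombinase, was at 4.01, 3.55, 3.69 and 6.66 with MOCA against a control mean of 5.14 ± 0.966. MOCA mouse 4 stood alone above the other MOCA livers, and the log2 fold change was -0.19 (adjusted p = 0.621). Brca1 averaged 1.37 and 1.49, and Fancm, a helicase of stalled forks, 9.18 and 8.46. Fancd2, the protein that the Fanconi core complex modifies, had 19 reads over the controls and 22 over the MOCA libraries, and Fanca, a subunit of that complex, 14 and 11.

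**Figure D2:**
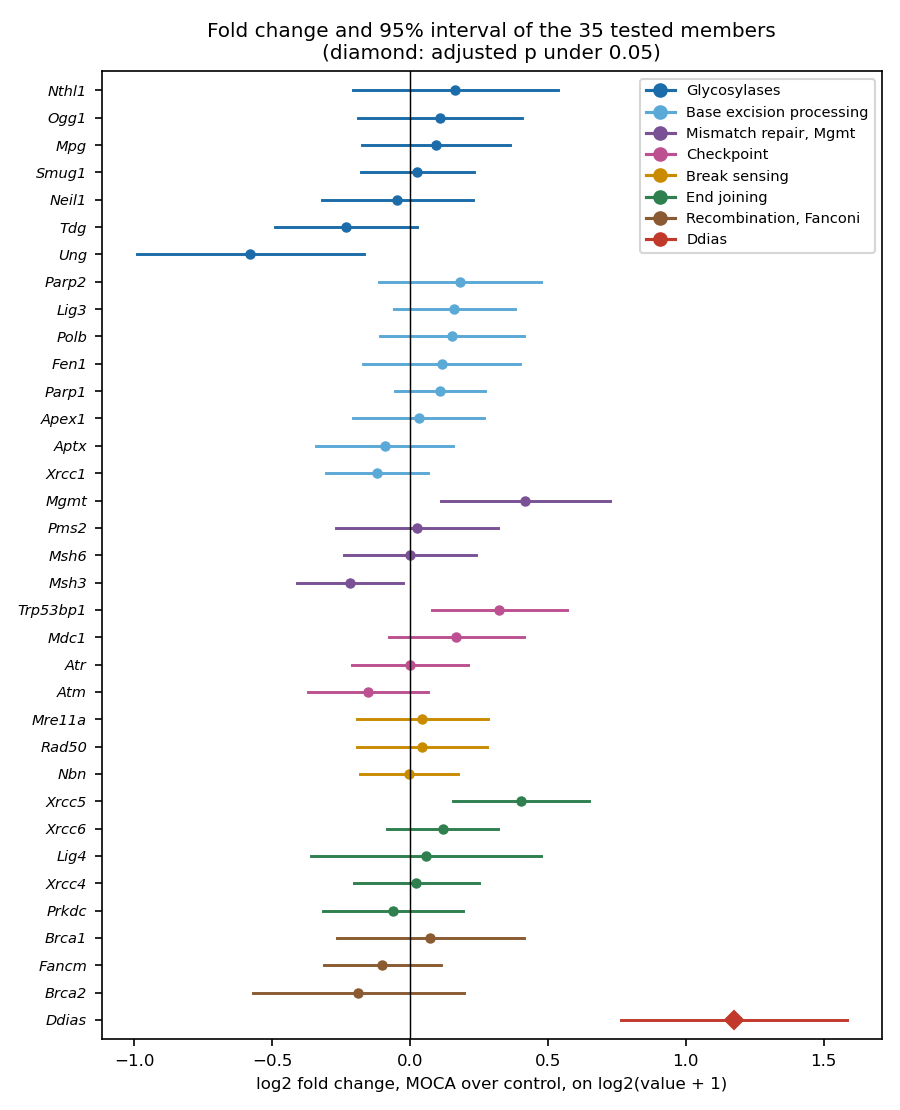
Log2 fold change of the 35 tested members, MOCA over control on log2(value + 1), with the 95% interval from limma (4 mice a group), coloured by role. The interval of Ddias (0.76 to 1.58) lies apart on the right, and 6 members, Ddias included, have an interval that leaves out 0.

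Over the 35 tested members, 24 log2 fold changes were positive (68.6%, against 51.1% of all tested genes) and 11 were negative, with a median of 0.04 against 0.0051 over all tested genes. With other scalings of the libraries the positive members numbered 22 to 25, while the share over all genes moved between 47.2% and 62.7%. At an unadjusted p under 0.05, 6 members (17.1%) were found, against a background of 17.5%, so the members' share was near that of all genes. Of these 4 were higher (background 9.42%) and 2 lower (background 8.05%). Groups did not overlap for 3 members with MOCA above (8.57%, background 5.5%) and for 1 with MOCA below (2.86%, background 4.96%). In 30 of the 35 the log2 fold change was under 0.25 in size.

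MOCA mouse 4 deviated most from the control mean over the members as a whole. The median deviation of the 35 tested members was -0.05, 0.09, 0.02 and 0.16 on the log2 scale in MOCA mice 1 to 4, and between -0.05 and 0.05 in the controls. In MOCA mouse 4, 25 of the 35 were above the control mean, against 13, 20 and 20 in MOCA mice 1 to 3 and 13 to 21 in the controls. The controls enter that mean themselves, which draws their values towards it, so their range is no yardstick for the MOCA mice. Over all tested genes the median deviation was 0.0094, 0.0069, 0.0032 and 0.0032 in MOCA mice 1 to 4.

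**Figure D3:**
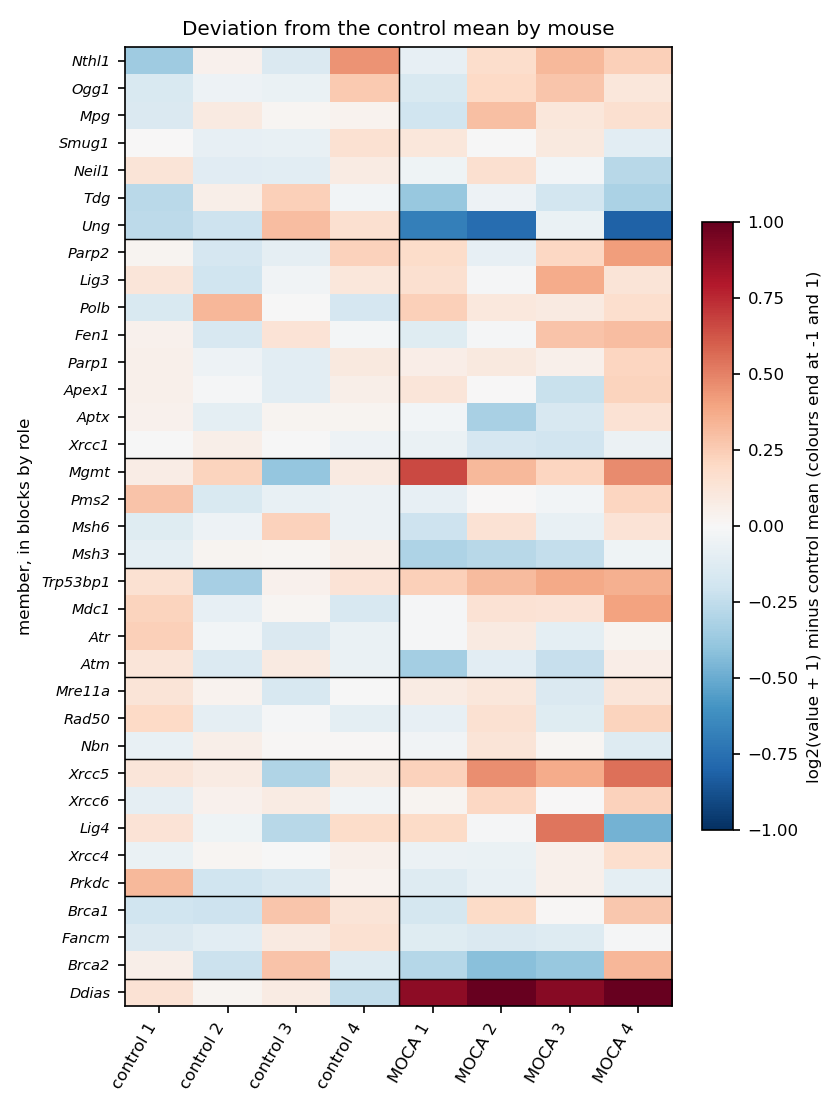
Deviation of each tested member from the control mean, on log2(value + 1), in each of the 8 mice, in blocks by role (colours end at -1 and 1). Ddias is dark red in all 4 MOCA mice, Ung is blue in MOCA mice 1, 2 and 4, and most other rows show deviations of either sign in both groups.

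Per length of merged exons the members covered a wide range of levels. Averaged over 8 mice, Nbn was the highest at 7.89 CPM per kilobase, followed by Parp1 at 7.01, Xrcc5 at 6.52, Apex1 at 6.26, Mgmt at 4.97 and Lig3 at 4.41. The lowest were Brca1 at 0.168, Chek1 at 0.0844, Mutyh at 0.0509, Fancd2 at 0.0401 and Fanca at 0.0219. The called gene was among the low ones, since Ddias was at 0.305 per kilobase in controls and 1.06 with MOCA. The order of neighbours in this ranking is within the spread between mice for most genes, as their ranges overlap.

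**Figure D4:**
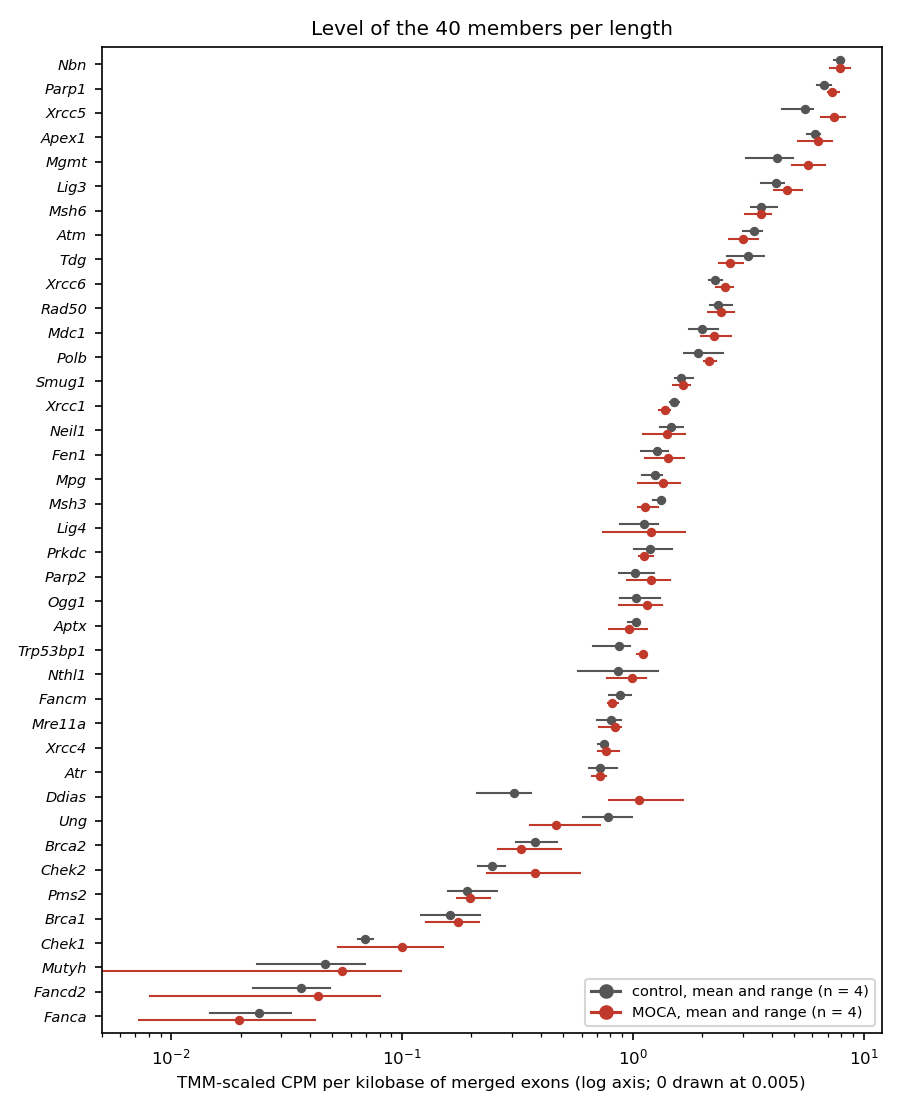
Level of all 40 members in TMM-scaled CPM per kilobase of merged exons (log axis, 0 drawn at 0.005), as mean and range of 4 control and 4 MOCA mice. Ddias is the gene with the widest gap between its ranges, and the ranges of most other genes overlap between the groups.

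Gene span was weakly related to the fold changes. Over 11440 tested genes with a RefSeq span, longer genes had slightly lower log2 fold changes (Spearman's rho -0.10 across genes), and 63.4% of the 1482 genes over 100 kb were negative. Across the 35 members, whose median span was 32.1 kb, Pearson's r was 0.01 and rho -0.11. Of the 5 members over 100 kb, Msh3 and Prkdc were negative and Mgmt, Trp53bp1 and Xrcc4 positive. These coefficients describe genes measured in the same libraries, not independent samples, and the difference between members and other genes was not tested.

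**Figure D5:**
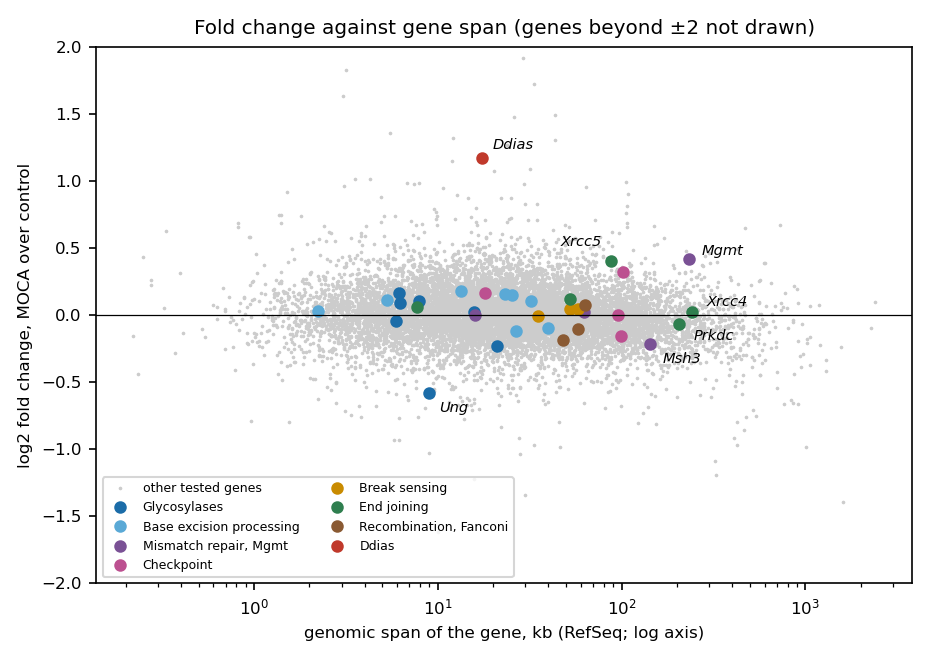
Log2 fold change, MOCA over control, against genomic span in kb (log axis) for the 35 tested members, coloured by role, and for the other tested genes in grey; genes beyond ±2 are not drawn. Ddias, at 1.17, is the highest member and Ung, at -0.58, the lowest, and the other members lie between them at every span.

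Many of these genes start close to a neighbour on the other strand. Of the 40 members, 13 (32.5%) had a protein-coding gene starting head to head within 1 kb in GENCODE, against 10.1% of 11240 tested protein-coding genes. In the 8 pairs with both genes tested, no neighbour was called (lowest adjusted p 0.273) and the neighbours' log2 fold changes ran from -0.14 to 0.16. For Ddias the neighbour is Prcp, a lysosomal carboxypeptidase whose start is 223 bases away. Prcp averaged 10.9 in both groups (log2 fold change -0.0039, SE 0.10, adjusted p = 0.988). The RefSeq record of Ddias also runs past the start of Prcp.

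The records of 14 of the 40 members overlap a protein-coding gene on the other strand in GENCODE, and the labels do not say whether reads were counted by strand, so the values of these members are uncertain. Mpg shares 6196 bases with Nprl3 (11.3 in controls and 11.1 with MOCA), and Xrcc6 shares 41340 bases with Desi1 (54.8 and 47.4, log2 fold change -0.21, adjusted p = 0.209). Both neighbours had higher values than the member. Lig3 shares 1826 bases with Rffl, Ogg1 shares 945 with Camk1 and Xrcc4 shares 486 with Tmem167.

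Promoter windows were at hand for 35 of the 40 members (all but Prkdc, Polb, Rad50, Fancd2 and Nbn), and motifs were searched on both strands. Some windows, such as those of Ddias, Aptx and Trp53bp1, lie inside the gene's RefSeq record and not at its outer 5′ end. CCAAT was found in 21 of the 35 (60%), against 37.9% of all 27025 windows and 38.8% of those of tested genes. The E2F form TTTCCCGC was in 5 (14.3%, against 1.11% and 2.01%), those of Msh6, Chek2, Mdc1, Xrcc6 and Brca2, and the form TTTGGCGC was in that of Msh3. CACGTG was in 6 (17.1%, against 7.24% and 10.3%), Xrcc5 and the base excision genes Tdg, Apex1, Parp1, Parp2 and Lig3 among them. The cyclic AMP element TGACGTCA was in 3 (8.57%, against 1.88% and 3.25%), those of Tdg, Aptx and Brca2. The p53 response element was in 0 of 35 and in 0.0592% of all windows. A match describes letters in a window, not binding. The tested members with CCAAT, with the E-box or with TTTCCCGC included, for each motif, log2 fold changes of both signs. The 3 with TGACGTCA gave -0.23 (Tdg), -0.09 (Aptx) and -0.19 (Brca2), none of them called. The signs of other tested genes with TGACGTCA were not examined.

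The other repair and checkpoint genes of these pathways included no call by limma. Of 72 further genes of base excision, mismatch repair, checkpoints, end joining, recombination and the Fanconi pathway, 70 were listed and 58 tested. The number called was 0, against 0.666% of all tested genes. At an unadjusted p under 0.05 in limma there were 7 (12.1%, 6 higher and 1 lower), against 17.5% of all tested genes. Groups did not overlap for 3 with MOCA above (5.17%, background 5.5%) and for 1 with MOCA below (1.72%, background 4.96%). EdgeR called 0 of the 58 tested genes and DESeq2, which called 425 genes in all, called 1, Parp3. Parp3, a break-responsive relative of Parp1, was at 15.7, 12.8, 9.69 and 13.3 in controls and at 16.4, 19.2, 19.8 and 21.7 with MOCA, without overlap (log2 fold change 0.56, SE 0.13, limma adjusted p = 0.0797). Atrip, the partner that brings Atr to single strands, was at 3.31, 2.83, 2.90 and 2.76 in controls and at 3.5, 4.51, 5.12 and 4.34 with MOCA, also without overlap (log2 fold change 0.44, SE 0.12, adjusted p = 0.111).

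The replicative ligase Lig1 lay the other way, at 4.26 ± 0.531 in controls and 2.92 ± 0.787 with MOCA (log2 fold change -0.44, adjusted p = 0.167). Of the other end joining genes the nuclease Dclre1c, which Prkdc activates, averaged 6.05 and 7.53 (adjusted p = 0.275), and the gap-filling polymerase Polm 2.02 and 2.57 (adjusted p = 0.432). Of the recombination genes the resolvase Gen1 averaged 0.851 and 1.39 (adjusted p = 0.170), and the resection factor Rbbp8 9.75 and 8.60 (adjusted p = 0.469). Gen1 was under 1 in every control and over 1 in every MOCA liver. It passed the filter only through the MOCA group, so its p and lack of overlap are not support for a rise. It is also among the genes counted above as higher at an unadjusted p under 0.05 and as without overlap. The nuclease Fan1 averaged 5.59 and 7.62 (adjusted p = 0.174) and Faap20, of the Fanconi core, 7.86 and 9.35 (adjusted p = 0.409). Hus1, of the checkpoint clamp, averaged 4.51 and 5.93, the mismatch repair gene Mlh3 12.6 and 14.4, and the histone methyltransferase Setd2 87.2 and 76.5, each with an adjusted p of 0.289 or above.

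Targets of p53, the transcription factor that Atm and Atr activate, did include calls. Of 20 such genes 19 were tested, and 5 (26.3%) were called higher and 0 lower, against 0.4% and 0.266% of all tested genes. The other 14 tested were not called. The list was drawn up with earlier results of these data known, so these shares are not independent support. The 5 included Phlda3, an inhibitor of Akt (1.084 to 5.47, log2 fold change 1.63), and the ectodysplasin receptor Eda2r (3.81 to 12.5, 1.49). The others were the cyclin Ccng1 (45.5 to 91.0, 0.98), the RNA-binding protein Zmat3 (19.99 to 33.4, 0.71) and the nuclease Aen (19.8 to 29.1, 0.53). The limma adjusted p of the 5 was 0.0270 at most. Next came Polk, a polymerase that copies past damaged bases (6.22 to 8.83, adjusted p = 0.0848), and Plk2 (8.23 to 12.2, adjusted p = 0.107). At an unadjusted p under 0.05, 13 of the 19 (68.4%) were higher and 0 lower, against 9.42% and 8.05% of all tested genes. Of the 19 log2 fold changes, 16 were positive and 3 negative.

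The tissue label was met by the hepatocyte markers Alb, Apoa1, Ttr, Serpina1a, Cyp2e1 and Cps1, which summed to 83970 to 100322 in controls and 75995 to 87119 with MOCA. All 6 had negative log2 fold changes, 2 of them at an unadjusted p under 0.05. The sinusoidal endothelial markers summed to 298 to 357 in controls and 287 to 298 with MOCA (4 of 5 negative, 2 at an unadjusted p under 0.05). The stellate cell markers summed to 421 to 468 and 347 to 424, mainly through Reln and Dcn. Of those 5 genes 3 were negative, 1 of them at an unadjusted p under 0.05, and 2 positive. In the other direction, the summed erythroid markers were 252 to 442 in controls and 472 to 524 with MOCA, without overlap, and the 5 Kupffer cell markers 223 to 269 and 235 to 317. No marker of these lists was called by limma, and the 4 erythroid markers tested were each higher at an unadjusted p under 0.05. The part of cell makeup and of depth in the members' values was not tested.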

How the data were processed

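Directional libraries were made from 200 ng of liver RNA after ribosomal RNA depletion, per the labels' protocols. Trimmomatic 0.38, Bowtie2, RSEM and edgeR with build mm10 are named in the submitters' processing notes, without role or order. Whether counting used strand is not stated in them. The authors deposited 1 table of scaled signal per gene, 15210 genes by 8 mice. All values (100%) are whole multiples of 1 step per column within 0.001, a step worth 0.0581 to 0.0648, and the columns' factors equal recomputed TMM factors within 4.4e-06, so the unit is TMM-scaled CPM. The 8 libraries together hold no fewer than 8 reads for any gene listed. Columns not used numbered 0, and replicates all differed by more than sampling noise (chi-square over degrees of freedom 12.5 to 26.9).

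Genes at 1 or above in at least 4 libraries were tested (12008, leaving out 3202) on log2(value + 1) with limma 3.58.1 (R 4.3.3, eBayes with trend), 4 MOCA against 4 control mice, without covariates, Benjamini-Hochberg adjusted over all of them. On the recovered reads DESeq2 1.42.0 and edgeR's quasi-likelihood test (4.0.16) were alternatives, beside other pseudocounts, filters, scalings, eBayes settings, a replicate block and leaving out each mouse. Exon lengths, head-to-head starts and overlaps come from GENCODE M21, positions and promoters from RefSeq on GRCm38.

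The members and lists were chosen with earlier results of these data known. Every member is named. Values per mouse and full statistics are given for called members, those with an unadjusted p under 0.05 or groups without overlap, the next smallest p up to 12 members, and Prkdc, Atm and Atr. From other pathway lists, called genes and at most 2 more per list with the smallest p are named. The proliferation and cell type markers named are exceptions.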

Additional observations from a re-analysis of the deposited data

Results flagged for a closer look

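Each member's 4 values in each group were checked for 1 mouse far from the others by Dixon's ratio, at a level that chance passes in about 1 of 20 groups. Of 80 groups checked, 5 held such a mouse. Ung was at 3.95 in MOCA mouse 3, against 1.95 to 2.23 in the other MOCA mice. Xrcc5 was at 11.3 in control mouse 3, against 15.01 to 15.5 in the other controls. Brca2 was at 6.66 in MOCA mouse 4, against 3.55 to 4.01. Mre11a was at 4.21 in MOCA mouse 3, against 5.09 to 5.25. Aptx was at 5.603 in control mouse 2, against 6.17 to 6.27.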

How the results depend on the processing

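With 4 mice a group, small changes of single members could not be told from none, and the 5 members under the filter on low values rest on few reads. The counts of called genes with the columns rescaled to equal sums were 169 (131 higher, 38 lower, against 48 and 32), with upper quartile scaling 45 higher and 51 lower, with robust eBayes 63 higher and 53 lower, and with DESeq2 425 (222 higher, 203 lower). Members called numbered 2 with DESeq2 (Ddias and Xrcc5) and 0 when a value of at least 1 was required in all 8 libraries, where Ddias was not tested because control mouse 4 was at 0.780. Rescaled to equal sums, the members' median log2 fold change was 0.089, over a median of 0.053 for all genes, and no member (0) lay below all controls while 4 lay above. The replicate block called 30 genes (20 higher, 10 lower) and 0 members, with an adjusted p of 0.0846 for Ddias. Replicate numbers did not pair the mice (correlations of same-numbered deviations -0.0735 to 0.036, with 0 of 4 controls closest to their own number). Leaving out each mouse in turn gave 29 to 77 called genes (21 to 42 higher, 8 to 35 lower) and 0 to 1 members. The counts were 45, 47, 29 and 40 without control mice 1 to 4, and 42 and 39 without MOCA mice 2 and 4. The log2 fold change of Ddias was 1.56 with a pseudocount of 0.25 and 0.61 with 4. Of the 35 tested members 23 kept their sign throughout. Nbn was 0.047 with equal sums. Msh6 was -0.017 (upper quartile), -0.0033 (median of ratios) and -0.0016 (DESeq2), and Atr -0.016, -0.0021, -0.0093 and, with edgeR, -0.0076. With a mouse left out, the log2 fold change ran from -0.12 to 0.029 for Neil1, -0.0027 to 0.078 for Smug1, -0.033 to 0.11 for Apex1, -0.047 to 0.076 for Msh6, -0.037 to 0.12 for Pms2, -0.046 to 0.081 for Atr, -0.017 to 0.11 for Rad50, -0.010 to 0.11 for Mre11a, -0.049 to 0.039 for Nbn, -0.13 to 0.045 for Prkdc, -0.025 to 0.053 for Xrcc4 and -0.10 to 0.24 for Lig4. The cause of these changes was not tested.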
